A study of Sus scrofa with 4 samples.

Results

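The unfolded protein response and the chaperones of the endoplasmic reticulum (ER) were examined as 33 genes in granulosa cells, the somatic cells that surround the oocyte and line the follicle, from porcine antral follicles. The members were the rows of the deposited count table whose symbol is one of 33 sensors, transcription factors, chaperones and degradation genes of the ER. All 33 were found among the 29884 rows, and all 33 passed the filter on low counts that left 14352 genes for testing. Before sequencing, the cells of each follicle had been read for cell cycle phase by flow cytometry. The table holds 2 libraries from cells with a high share in G0/G1, the phase before DNA synthesis, called high 1 and high 2, and 2 libraries from cells with a low share, called low 1 and low 2. No allele, treatment or time point is named for either group, and both came from ovarian granulosa cells. Which animals or how many follicles gave each library is not stated in the labels. The p-values therefore reflect only how these 4 libraries spread, and that spread may be technical.

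The ER folds proteins that are destined for the cell surface, for secretion or for other membrane compartments. When unfolded proteins build up there, the membrane sensors IRE1 (gene ERN1), PERK (EIF2AK3) and ATF6 are set off. IRE1 splices the XBP1 messenger RNA, PERK phosphorylates the translation factor eIF2alpha and so favours translation of ATF4, and ATF6 is cut in the Golgi to free a transcription factor. Their targets are ER chaperones, disulfide isomerases, the machinery of ER-associated degradation (ERAD), which returns misfolded proteins to the cytosol, and, under lasting stress, DDIT3 (CHOP). In granulosa cells the inhibins and matrix proteins they secrete pass through the ER.

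Library totals ran from 27442850 to 32674921 counts, and every member had at least 100 counts in each library. Levels are given in CPM, the counts scaled to a common library total after TMM scaling, and they are not corrected for gene length, so they are compared between libraries and not between genes. Granulosa markers were present in the 4 libraries, with INHA, the inhibin alpha subunit, at 10570 and 7997 CPM in high and 7745 and 6701 CPM in low G0/G1 cells. The row named CYP19A1, an aromatase gene, had 0 counts in each library. Whether the table counts aromatase under other symbols was not examined. Of the 9 granulosa markers 6 were lower and 2, INHA and AMHR2, higher in both high libraries, with FSHR, the receptor of follicle-stimulating hormone, at 22.5 and 26.03 CPM in high against 81.5 and 85.8 CPM in low. Genes of theca and stroma set 1 library apart. Their 9 markers summed to 159 CPM in high 1, 182 in high 2, 155 in low 1 and 1898 in low 2, and COL1A1 had 34.3, 27.7, 16.3 and 390 CPM in the same order of libraries. The 10 markers of S phase and mitosis summed to 1027 and 336 CPM in high against 2645 and 2373 CPM in low, and the grouping by cell cycle phase selects for that difference.

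The 33 genes did not share 1 direction between high and low G0/G1 cells. Sensors, transcription factors and stress effectors stood above the low libraries in high G0/G1 cells for 8 of 11 genes, against 26.8% of all genes tested. Lectin chaperones and protein disulfide isomerases stood below them for 5 of 6, against 29.8%. The role groups were chosen with earlier results of these data known, so this split by role only describes these 4 libraries. By edgeR's quasi-likelihood test 0 of the 33 passed an adjusted p of 0.05 in either direction, as for all genes tested (0% higher and 0% lower), and the smallest adjusted p of a member was 0.169. At an unadjusted p under 0.05 the test gave 8 members higher and 2 lower, 24.2% and 6.06% of the 33, against 9.92% and 10.8% of all genes tested. DESeq2 called 5 higher and 2 lower, against 5.79% and 5.48% of the genes to which it gave an adjusted p, and limma-voom called 0. The groups did not overlap for 12 members that were higher (36.4%) and 6 that were lower in high G0/G1 cells (18.2%), against 26.8% and 29.8% of all genes tested. The median log2 fold change, high minus low, was 0.34 over the members and -0.01 over all genes tested, with 23 of the 33 positive, against 49.4%, and 10 negative, against 50.6%. Which of the low libraries is used decides much of this. Against low 2 alone 27 of 33 log2 fold changes were positive, where 52.5% of all genes were, and against low 1 alone 15 were, where 53.8% of all genes were. In these bulk samples fewer cells of a type and less RNA per cell cannot be told apart.

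**Figure D1:**
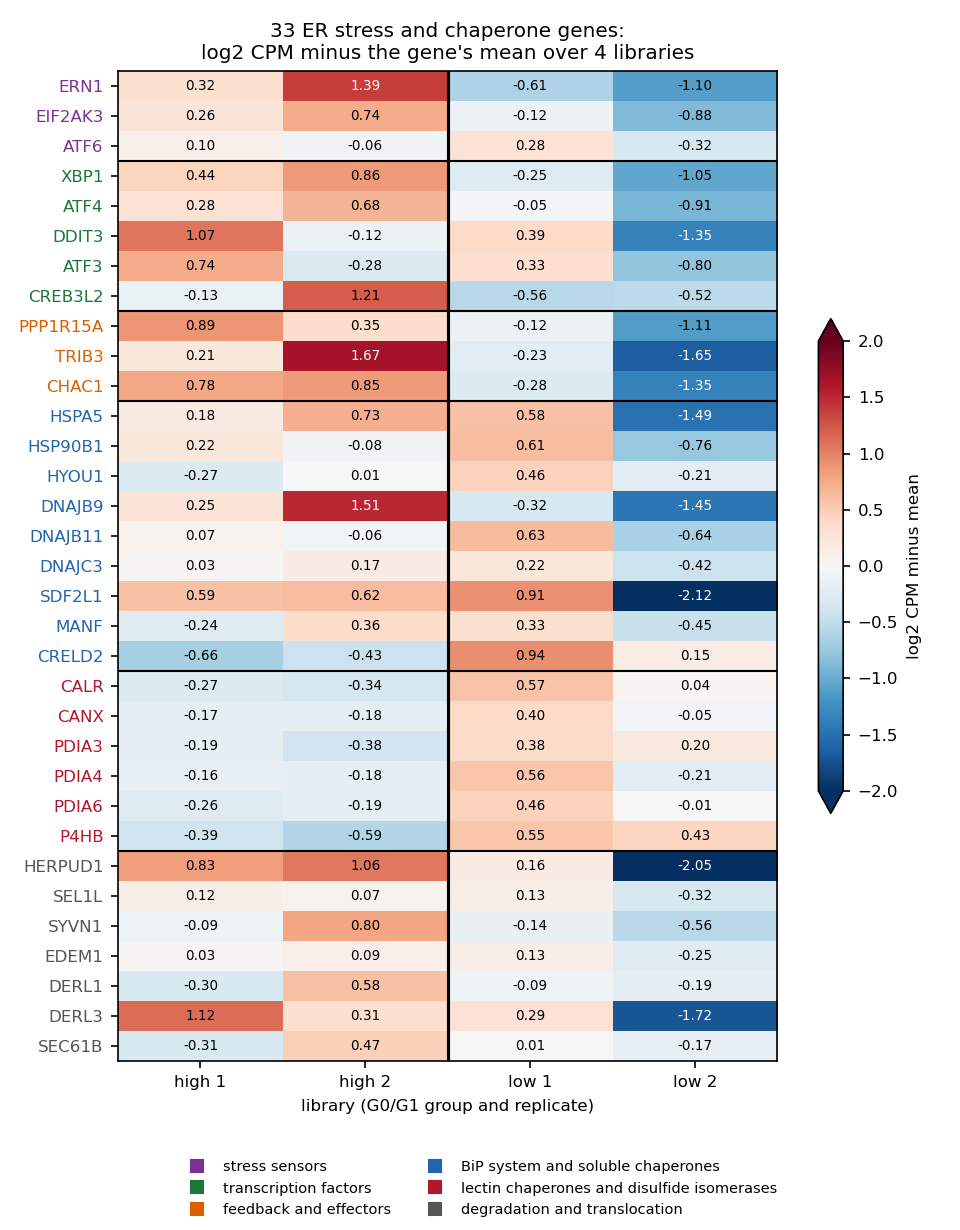
Log2 CPM of the 33 genes (rows, coloured by role) in each library (columns), as the difference from the gene's mean over the 4 libraries, with red above and blue below the mean. Low 2 holds the lowest value of 23 genes, SDF2L1 (-2.12) and HERPUD1 (-2.05) farthest down, and the disulfide isomerases and lectin chaperones are below their mean in both high libraries.

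Among the sensors, ERN1 and EIF2AK3 were higher in both high libraries (66.7%, against 26.8% of all genes tested) and ATF6 was not. ERN1 (chromosome 12, 14881913 to 14963290 in Sscrofa11.1), which encodes the kinase and endoribonuclease IRE1alpha, had 32.9 and 68.9 CPM in high against 17.2 and 12.2 CPM in low G0/G1 cells. The groups did not overlap, and high 2 was about double high 1, a ratio of 2.09. The log2 fold change of ERN1 was 1.79 ± 0.43 (SE, edgeR adjusted p = 0.169), and DESeq2 gave an adjusted p of 0.00478. EIF2AK3 (chromosome 3, 57423894 to 57506247), the gene of the eIF2alpha kinase PERK, had 97.2 and 136 CPM in high and 74.6 and 44.2 CPM in low libraries, with a log2 fold change of 0.97 ± 0.34 (edgeR adjusted p = 0.211). ATF6 itself, the sensor that is cut to a transcription factor, had 189 and 169 CPM in high and 215 and 142 CPM in low. The high libraries lay between the low ones, and the group means differed by less than their spread (179 ± 13.9 and 178 ± 51.6 CPM, SD, n = 2 each).

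Of the 5 transcription factors, XBP1, ATF4 and CREB3L2 were separated upwards (60%, against 26.8% of all genes tested), while DDIT3 and ATF3 overlapped. XBP1 (chromosome 14, 46011239 to 46016526), whose spliced messenger RNA codes for the active factor of the IRE1 arm, had 453 and 604 CPM in high and 280 and 161 CPM in low G0/G1 cells. Its log2 fold change was 1.26 ± 0.35 (SE, edgeR adjusted p = 0.176, DESeq2 adjusted p = 0.0201). The gene counts do not separate spliced from unspliced XBP1, so they say nothing of IRE1 activity. ATF4 (chromosome 5, 8742964 to 8745752), the factor translated when eIF2alpha is phosphorylated, had 600 and 788 CPM in high against 477 and 262 CPM in low, a log2 fold change of 0.91 ± 0.36 (edgeR adjusted p = 0.243). CREB3L2, an ER membrane factor related to ATF6, had 272 and 691 CPM in high and 203 and 208 CPM in low. Its low libraries nearly coincided and its difference came mostly from high 2. The log2 fold change of 1.23 ± 0.46 (edgeR adjusted p = 0.230) was 0.41 without high 2.

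DDIT3 and ATF3 followed another order of libraries from that of XBP1 and ATF4. DDIT3 (chromosome 5, 22785441 to 22789867), the gene of the death-promoting factor CHOP, had 93.1 and 40.7 CPM in high against 58.1 and 17.4 CPM in low. ATF3, a stress-induced factor that also behaves as an immediate early gene, had 327 and 161 CPM in high against 246 and 112 CPM in low. In both genes high 1 was over 2-fold above high 2 and low 1 over 2-fold above low 2, and the groups overlapped. The log2 fold changes were 0.83 ± 0.67 for DDIT3 (SE, edgeR adjusted p = 0.515) and 0.44 ± 0.51 for ATF3 (edgeR adjusted p = 0.651). Immediate early genes, which cell handling can induce, did not share 1 order of the 4 libraries. Between the low libraries, low 2 stood above low 1 in only 1 of the 8, with a median log2 ratio, low 1 over low 2, of 0.98. Of 8 such genes FOS, FOSB and JUN had the order of DDIT3 and ATF3, with FOS at 2006 and 1107 CPM in high against 1493 and 545 CPM in low. JUNB and EGR1 had the order of XBP1 and ATF4, with EGR1 at 1358 and 1688 CPM in high against 729 and 404 CPM in low, and the other 3 had neither. The part of handling in the levels of these members was not tested.

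The feedback gene and both effectors were higher in both high libraries, as were 26.8% of all genes tested. PPP1R15A, which encodes GADD34, the regulatory subunit that lets protein phosphatase 1 restore eIF2alpha, had 670 and 460 CPM in high and 332 and 167 CPM in low libraries. TRIB3, a pseudokinase induced by ATF4 and CHOP, had 16.5 and 45.4 CPM in high against 12.1 and 4.51 CPM in low, with high 2 at 2.75 times high 1. CHAC1, a glutathione-degrading enzyme downstream of ATF4, had 15.4 and 16.2 CPM in high against 7.37 and 3.47 CPM in low. The high libraries of CHAC1 agreed closely, at 15.8 ± 0.581 CPM (SD, n = 2), and stood at 2.92 times the mean of the low ones. The log2 fold changes of the 3 genes were 1.18 ± 0.41, 1.90 ± 0.68 and 1.54 ± 0.45 (SE), with edgeR adjusted p from 0.184 to 0.218. DESeq2 called TRIB3 (adjusted p = 0.0434) and CHAC1 (adjusted p = 0.0270). It did not call PPP1R15A (adjusted p = 0.0621).

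**Figure D2:**
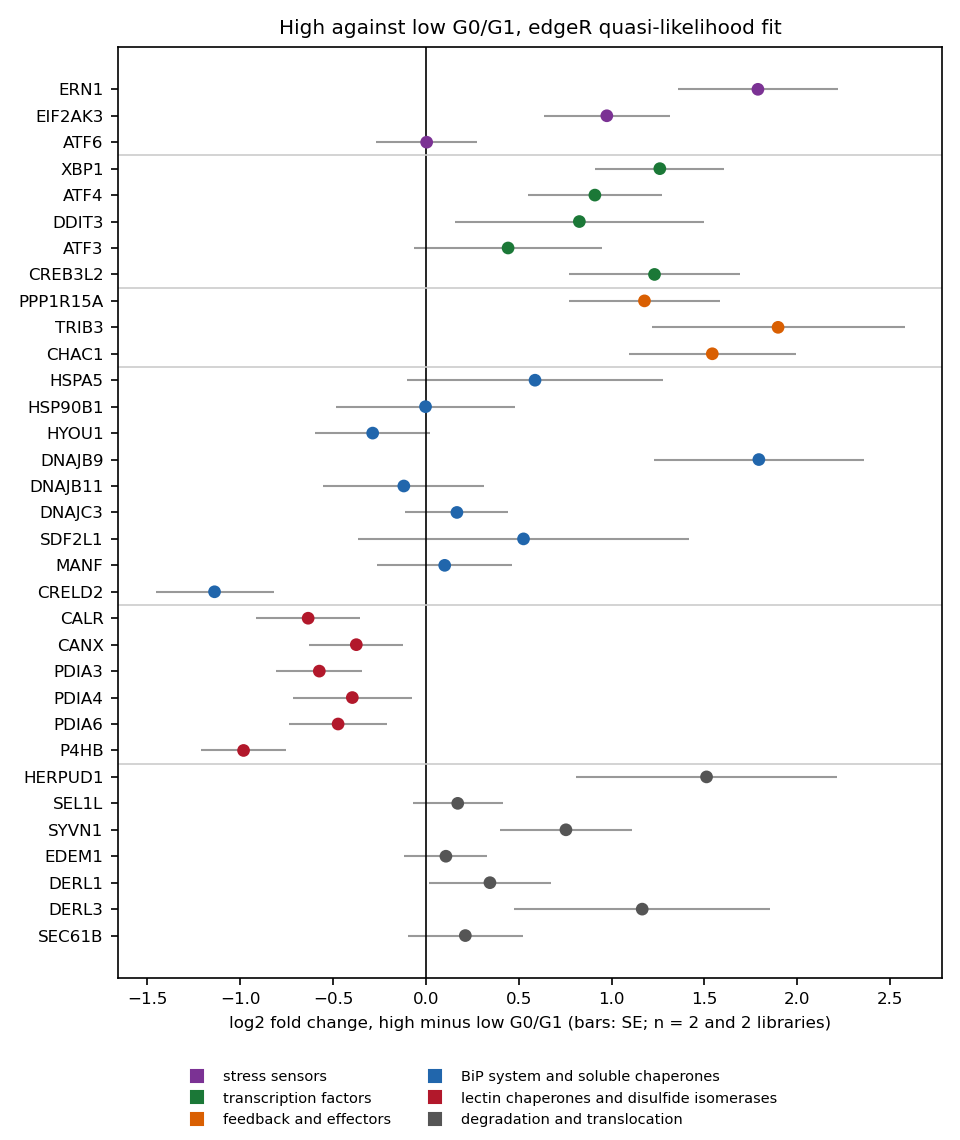
Log2 fold change of each gene, high minus low G0/G1, from edgeR's quasi-likelihood fit (points coloured by role, bars 1 SE, 2 libraries a group). Sensors, factors and effectors run from 0.0039 for ATF6 to 1.90 for TRIB3, and the lectin chaperones and disulfide isomerases from -0.98 for P4HB to -0.38 for CANX.

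Among BiP, its partners and other soluble chaperones, 1 of 9 genes was separated upwards, DNAJB9, and 1 downwards, CRELD2, while the remaining 7 overlapped. Of all genes tested 26.8% were higher and 29.8% lower in this way, larger shares than in this role. HSPA5 (chromosome 1, 265930044 to 265934959) encodes BiP, the ER member of the HSP70 family and the chaperone that holds the sensors inactive. It had 10177 and 14884 CPM in high against 13472 and 3203 CPM in low G0/G1 cells, so that 3 libraries were alike in range and low 2 stood far below them. HSPA5 alone took 0.999% of the counts in high 1 (95% Wilson interval 0.995 to 1.002), 1.48% in high 2 (1.47 to 1.48), 1.32% in low 1 (1.31 to 1.32) and 0.337% in low 2 (0.335 to 0.339), intervals that cover counting error only. Its log2 fold change was 0.59 ± 0.69 (SE, edgeR adjusted p = 0.660). It was 2.04 without low 1 and -0.09 without low 2.

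DNAJB9 (chromosome 18, 36578928 to 36584211), the BiP cochaperone ERdj4 and a well-known target of XBP1, had 101 and 243 CPM in high against 68.1 and 31.2 CPM in low. The log2 fold change was 1.79 ± 0.57 (SE, edgeR adjusted p = 0.196), and DESeq2 gave an adjusted p of 0.0205. CRELD2, a secreted ER stress protein, went the other way, with 42.4 and 49.96 CPM in high against 129 and 74.8 CPM in low (log2 fold change -1.14 ± 0.32, edgeR adjusted p = 0.179, DESeq2 adjusted p = 0.0458). SDF2L1 (chromosome 14, 50249607 to 50251636), a partner of BiP and its cochaperones, had 67.4 and 68.4 CPM in high against 84.1 and 10.2 CPM in low. Its high libraries lay between the low ones, and low 2 was the exception.

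HSP90B1, the ER member of the HSP90 family (GRP94), had 2106 and 1711 CPM in high and 2756 and 1067 CPM in low, with a log2 fold change of -0.0022 ± 0.48 (SE). DNAJB11, a BiP cochaperone, had 100.1 and 91.6 CPM in high and 147 and 60.9 CPM in low. DNAJC3, which restrains PERK and also serves BiP, had 77.5 and 85.5 CPM in high and 88.7 and 56.6 CPM in low. In these 3 genes the high libraries lay within the range of the low ones. HYOU1, a nucleotide exchange factor of BiP, had 690 and 841 CPM in high and 1147 and 721 CPM in low, and MANF, a secreted ER stress factor, had 218 and 331 CPM in high and 323 and 188 CPM in low. Their groups overlapped, with log2 fold changes of -0.29 ± 0.31 for HYOU1 (edgeR adjusted p = 0.626) and 0.10 ± 0.36 for MANF (edgeR adjusted p = 0.897).

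All 6 lectin chaperones and disulfide isomerases had a negative log2 fold change, as did 50.6% of all genes tested. In 5 of them (83.3%) the groups did not overlap, against 29.8% of all genes tested that were lower in this way. P4HB (chromosome 12, 1121816 to 1131291), the founding protein disulfide isomerase and the beta subunit of collagen prolyl 4-hydroxylase, had 779 and 679 CPM in high against 1497 and 1383 CPM in low. Its means, 729 ± 71.0 and 1440 ± 81.0 CPM (SD, n = 2 each), differed by far more than the spread within a group. The log2 fold change was -0.98 ± 0.23 (SE, edgeR adjusted p = 0.169), DESeq2 gave an adjusted p of 0.00588, and with 1 library left out the value ranged from -1.09 to -0.86. P4HB also had the smallest unadjusted p of the 33 genes, 0.00705.

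CALR, the calcium-binding lectin chaperone calreticulin, had 1707 and 1622 CPM in high against 3051 and 2118 CPM in low, a log2 fold change of -0.63 ± 0.28 (SE, edgeR adjusted p = 0.274). PDIA3, the oxidoreductase ERp57 that works with calreticulin, had 996 and 874 CPM in high against 1479 and 1305 CPM in low (-0.57 ± 0.23, edgeR adjusted p = 0.248). PDIA6 had 939 and 987 CPM in high and 1555 and 1118 CPM in low, and CANX, the membrane-bound lectin calnexin, had 647 and 642 CPM in high and 966 and 706 CPM in low. PDIA4 overlapped, with 862 and 848 CPM in high against 1420 and 831 CPM in low. The high libraries were closely matched for CANX, at 645 ± 3.57 CPM, and for PDIA4, at 855 ± 9.36 CPM (SD, n = 2). For PDIA3 the log2 ratio of replicates was 0.19 between high 1 and high 2 and 0.18 between low 1 and low 2.

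Of the degradation and translocation genes 7 of 7 had a positive log2 fold change, against 49.4% of all genes tested. HERPUD1, SYVN1 and DERL3 did not overlap between groups (42.9%, against 26.8% of all genes tested that were higher). HERPUD1 (chromosome 6, 18901171 to 18913427), an ER stress-induced scaffold of the degradation complex, had 896 and 1046 CPM in high against 560 and 121 CPM in low. The log2 fold change was 1.51 ± 0.70 (SE, edgeR adjusted p = 0.293), and it was 3.07 without low 1 and 0.81 without low 2. DERL3, a derlin of the retrotranslocation channel, had 52.5 and 30.1 CPM in high against 29.5 and 7.31 CPM in low. High 2 and low 1 nearly coincided there, and the log2 fold change of 1.16 ± 0.69 (edgeR adjusted p = 0.379) was 2.56 without low 1 and 0.49 without low 2.

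SYVN1, the ubiquitin ligase HRD1, had 74.3 and 138 CPM in high against 71.9 and 53.9 CPM in low, so that high 1 barely cleared low 1. SEL1L, its partner, had 294 and 284 CPM in high against 297 and 216 CPM in low, and EDEM1, a lectin that directs glycoproteins to degradation, had 126 and 132 CPM in high against 135 and 104 CPM in low. DERL1 (67.4 and 124 CPM in high, 78.2 and 72.6 CPM in low) and SEC61B (89.0 and 153 CPM in high, 111 and 98.0 CPM in low), a subunit of the translocon, were highest in high 2 and lowest in high 1. The log2 fold changes of these 4 overlapping genes ran from 0.11 to 0.34.

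**Figure D3:**
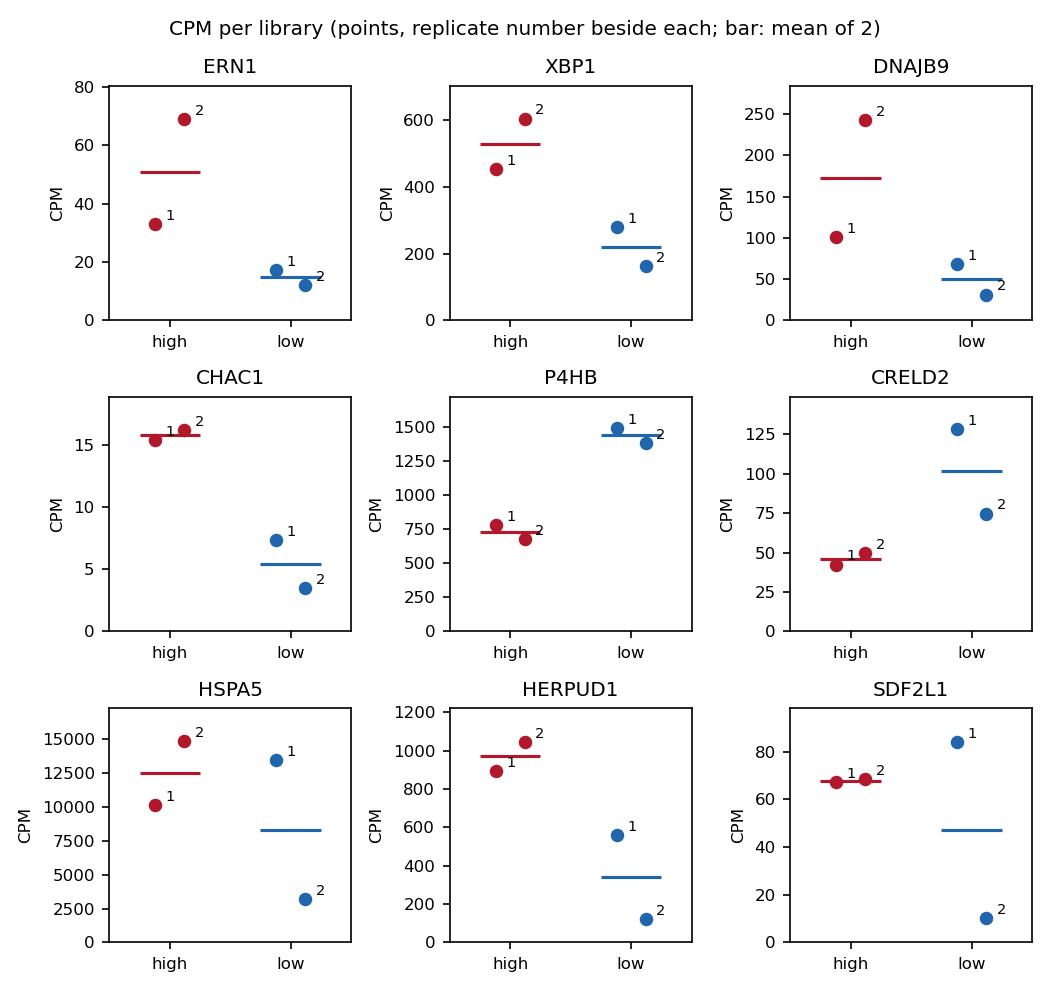
CPM of 9 of the genes in each library (points with the replicate number, bars the mean of 2 libraries, high in red and low in blue, linear axes from 0). ERN1, XBP1, DNAJB9, CHAC1 and HERPUD1 lie higher and P4HB and CRELD2 lower in both high libraries, while HSPA5 and SDF2L1 are low in low 2 alone.

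The 2 low libraries differed from each other in 1 direction. Low 1 was above low 2 in 32 of the 33 genes, against 49.4% of all genes tested, and the exception, CREB3L2, was level between them. The ratio passed 2-fold upwards in 11 genes (33.3%) and downwards in 0, against 4.35% and 8.1% of all genes tested. The median log2 ratio was 0.77 over the members and -0.01 over all genes tested. With 1 library on each side this has no replicate check and was not tested. The largest ratios were 8.25 for SDF2L1 (84.1 over 10.2 CPM, 95% exact counting interval 7.31 to 9.34), 4.61 for HERPUD1 (4.45 to 4.79), 4.21 for HSPA5 (4.18 to 4.24), 4.03 for DERL3 (3.47 to 4.70) and 3.34 for DDIT3 (3.03 to 3.70). TRIB3, HSP90B1, DNAJB11, ATF3, DNAJB9 and CHAC1 made up the remainder of the 11, at 2.13 to 2.69. PPP1R15A lay just under 2-fold at 1.99. Past 1.5-fold upwards there were 21 members, against 10.5% of all genes tested.

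By role, 5 of the 9 BiP-system genes, 2 of the 5 transcription factors, 2 of the 3 feedback and effector genes and 2 of the 7 degradation and translocation genes passed 2-fold between the low libraries. None (0) of the 3 sensors or of the 6 lectin chaperones and disulfide isomerases did, and their log2 ratios ran from 0.11 for P4HB to 0.77 for PDIA4. Over the 4 libraries 23 members had their lowest level in low 2, against 21.9% of all genes tested. None (0) had the highest level there, against 24.3%. The highest level fell in high 1 for 4 members, against 21.1%, in high 2 for 14, against 30%, and in low 1 for 15, against 24.6%. All 33 genes together took 2.34% of the counts in high 1, 2.88% in high 2, 3.06% in low 1 and 1.54% in low 2. Without HSPA5 these shares were 1.34%, 1.41%, 1.75% and 1.21%.

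The 2 high libraries showed no such common direction. High 1 was above high 2 in 13 of the 33 genes, against 53% of all genes tested, and the median log2 ratio was -0.07. DDIT3 and ATF3 were past 2-fold upwards, 6.06% of the members against 9.09% of all genes tested, with ratios of 2.29 and 2.04. TRIB3, CREB3L2, DNAJB9 and ERN1 were past 2-fold downwards, 12.1% against 9.66%, with high 2 at 2.75, 2.54, 2.40 and 2.09 times high 1. Past 1.5-fold downwards there were 8 members, against 17.4%. The 6 lectin chaperones and disulfide isomerases stayed within log2 ratios of -0.07 to 0.20, and SDF2L1, CHAC1, SEL1L and EDEM1 within -0.07 to 0.05. CHAC1, the CHOP and ATF4 target, did not follow TRIB3 between these libraries.

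**Figure D4:**
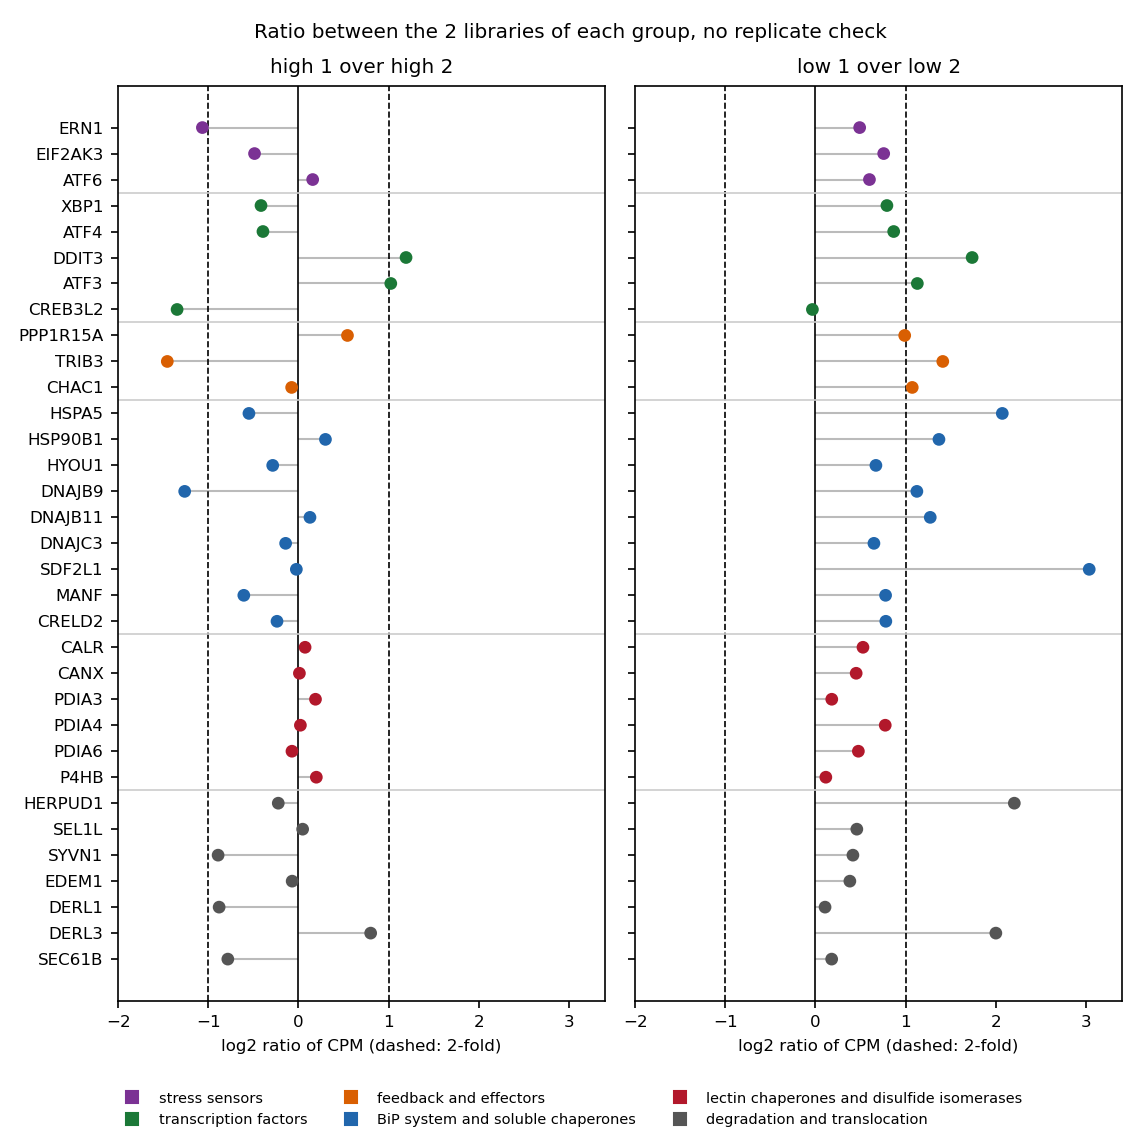
Log2 ratio of CPM between the replicates of a group, high 1 over high 2 on the left and low 1 over low 2 on the right, for each gene (points coloured by role, dashed lines at 2-fold, no replicate check). Ratios scatter around 0 in the high group, while 32 of 33 are positive in the low group.

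The comparison of groups was repeated without each library, where the lone library of a group is assumed to vary like those of the other group. Without high 1, 16 members lay higher in high 2 than in both low libraries and 6 lower, against 39.7% and 42.1% of all genes tested, and 21 had a positive log2 fold change, against 47.7%. Without high 2, 14 lay higher and 9 lower, against 37.6% and 39.9%, and 21 were positive, against 47.3%. Without low 1, 24 members lay higher in both high libraries than in low 2 and 6 lower, against 38.6% and 37.4% of all genes tested, and the median log2 fold change was 0.90. Without low 2, 12 lay higher and 15 lower, against 39.4% and 36.9%, and the median was -0.03. ERN1, EIF2AK3, XBP1, ATF4, PPP1R15A, TRIB3, CHAC1, DNAJB9 and HERPUD1 kept a positive log2 fold change whichever library was left out, the lowest of these values being 0.56 for ATF4. DDIT3, CREB3L2, SYVN1 and DERL3 also stayed positive, with DDIT3 down to 0.10 without high 1. CRELD2, CALR, CANX, PDIA3, PDIA6 and P4HB kept a negative one. Except for DDIT3, all of these genes had groups that did not overlap. That separation all but fixes the sign when 1 library is left out, so the kept sign adds little to it. EdgeR called ERN1 (2.22, adjusted p = 0.0308) and CREB3L2 (1.74, adjusted p = 0.0325) without high 1, where it called 2.41% of all genes higher and 3.92% lower, and with any of the other 3 libraries left out it called 0 members and 0% of all genes. DESeq2 called 7 members higher without high 1, against 7.54% of the genes with an adjusted p, and 1 lower, P4HB, against 9.68%. Without high 2 it called PPP1R15A higher, against 3.08%, and P4HB lower, against 3.70%. Without low 1 it called 11 higher, among them HSPA5, HERPUD1 and SDF2L1, against 2.58%, and 0 lower, against 0.943%. Without low 2 it called 0 members, against 1.56% higher and 1.09% lower.

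The 7 further lists named 128 genes of the ER and secretory pathway, of ATF4 and CHOP targets and of cytosolic heat shock. They gave 121 tested genes, of which 53 had a positive log2 fold change (43.8%, against 49.4% of all genes tested). The median over the 121 was -0.08, and 31 lay higher and 36 lower in both high libraries (25.6% and 29.8%, against 26.8% and 29.8% of all genes tested). By edgeR 0 passed an adjusted p of 0.05, the unadjusted p was under 0.05 for 8 higher and 11 lower genes (6.61% and 9.09%, against 9.92% and 10.8% of all genes tested), and 1 higher and 2 lower genes were called by DESeq2, against 5.79% and 5.48%. In the list of folding and disulfide enzymes 14 of 24 genes lay lower in both high libraries (58.3%, against 29.8% of all genes tested) and 4 higher (16.7%, against 26.8%). MOGS, the glucosidase that starts trimming of N-glycans, had 66.3 and 51.8 CPM in high against 145 and 140.4 CPM in low (log2 fold change -1.27 ± 0.22, SE, edgeR adjusted p = 0.142), and PDIA5 had 36.4 and 40.3 CPM in high against 67.5 and 64.7 CPM in low. ERO1B, an oxidase that recharges disulfide isomerases, stood at 9.29 and 23.2 CPM in high against 6.18 and 5.996 CPM in low.

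The ERAD list leaned the other way in count, with 11 of 23 genes higher in both high libraries (47.8%, against 26.8%) and 5 lower (21.7%, against 29.8%). ERLEC1, an ER lectin, had 101 and 82.9 CPM in high against 57.4 and 44.6 CPM in low (0.85 ± 0.24, SE, edgeR adjusted p = 0.179). UBE2J1, the ubiquitin-conjugating enzyme of the ER membrane, had 101 and 90.1 CPM in high against 64.7 and 51.7 CPM in low (0.71 ± 0.22, edgeR adjusted p = 0.195). UFD1, a cofactor of the extracting ATPase VCP, had 44.2 and 40.7 CPM in high against 62.5 and 59.6 CPM in low.

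Among transducers and eIF2alpha control genes 2 of 13 lay higher and 5 lower in both high libraries (15.4% and 38.5%, against 26.8% and 29.8% of all genes tested). PPP1R15B, the constitutive counterpart of PPP1R15A, had 190.1 and 261 CPM in high against 126 and 89.2 CPM in low (1.07 ± 0.29, SE, edgeR adjusted p = 0.176, DESeq2 adjusted p = 0.0280), and CREB3L4 had 2.68 and 2.21 CPM in high against 5.11 and 8.63 CPM in low. In the list of ATF4 and CHOP targets 4 of 12 lay higher and 1 lower (33.3% and 8.33%, against the same 26.8% and 29.8%). The lower gene was VEGFA, an angiogenic factor also induced by hypoxia, at 148 and 71.3 CPM in high against 356 and 228 CPM in low (-1.41 ± 0.43, edgeR adjusted p = 0.195). CEBPG, a partner of ATF4, had 61.4 CPM in both high libraries against 47.4 and 25.8 CPM in low, and NUPR1 stood out in 1 library, with 8.92 and 84.3 CPM in high against 9.09 and 14.2 CPM in low.

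In the translocon and glycosylation list 6 of 22 lay higher and 7 lower (27.3% and 31.8%, near the 26.8% and 29.8% of all genes tested), with DAD1, a subunit of oligosaccharyltransferase, at 70.7 and 64.4 CPM in high against 97.1 and 103 CPM in low. In the COPII traffic list 3 of 15 lay higher and 3 lower (20% each), with TMED10, a cargo receptor, at 982 and 1004 CPM in high against 689 and 643 CPM in low.

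Between the low libraries 82 of the 121 tested genes were higher in low 1 (67.8%, against 49.4% of all genes tested), the direction of the members. The difference passed 2-fold upwards in 9 (7.44%, against 4.35%) and downwards in 1 (0.826%, against 8.1%), CREB3L1, which had 0.671 and 0.596 CPM in high and 0.0627 and 7.45 CPM in low and was named after its values were seen. Of the 9, 6 were among the 12 tested genes of the cytosolic heat shock list. In that list 11 of 12 genes were higher in low 1 than in low 2 with a median log2 ratio of 0.96. Only 1 of 12 lay higher and 1 lower in both high libraries than in both low ones (8.33% each, against 26.8% and 29.8% of all genes tested). HSPH1, a cytosolic HSP110 chaperone, had 756 and 729 CPM in high against 1322 and 306 CPM in low, and BAG3, a cochaperone of HSP70, had 191 and 171 CPM in high against 493 and 124 CPM in low, both named after their values were seen. The other 3 genes past 2-fold, also named after their values were seen, were SELENOS, an ERAD component (98.5 and 35.0 CPM in low), and the ATF4 pathway genes CEBPB (47.6 and 12.6 CPM) and SESN2 (29.2 and 8.35 CPM). In the list of ATF4 and CHOP targets 10 of 12 genes were higher in low 1 than in low 2 (83.3%, against 49.4%). Their median log2 ratio was 0.73, and 2 passed 2-fold upwards (16.7%, against 4.35%). None (0) of the 24 folding and disulfide enzymes, of the 22 translocon genes or of the 15 COPII genes passed 2-fold upwards.

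**Figure D5:**
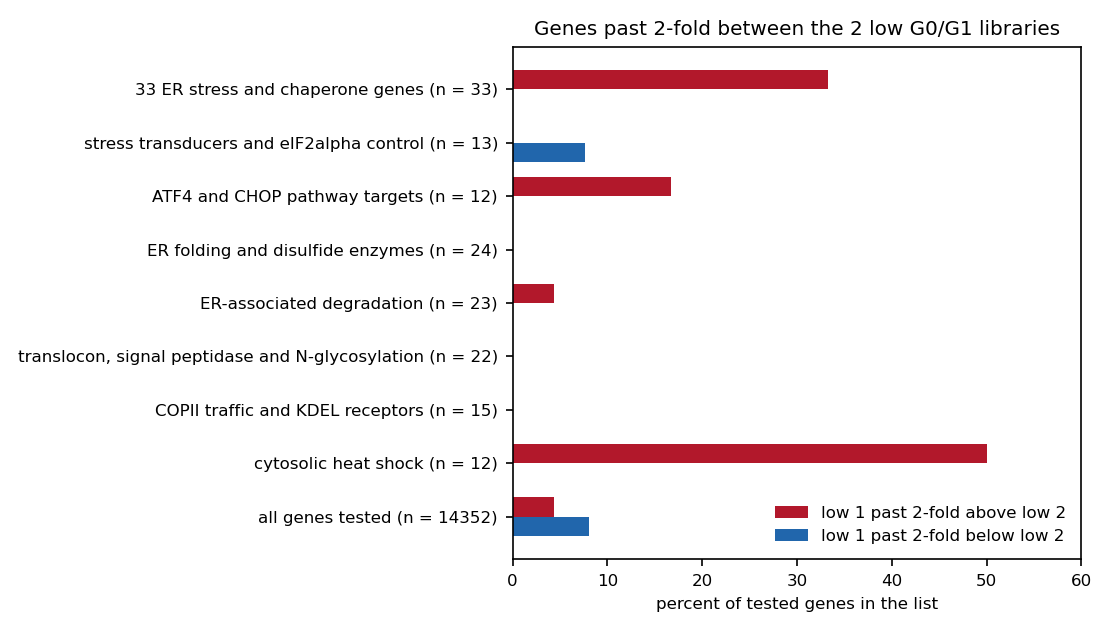
Share of tested genes whose CPM differed by more than 2-fold between low 1 and low 2, for the 33 genes, 7 further lists and all genes tested (red, low 1 above low 2, and blue, low 1 below low 2). The 33 genes (33.3%), the cytosolic heat shock list (50%) and the ATF4 and CHOP targets (16.7%) stand above the 4.35% of all genes tested. In 4 lists no gene is past 2-fold upwards.

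Other values moved with these libraries. The 8 immediate early genes summed to 6137 and 4407 CPM in high against 3888 and 1673 CPM in low, with low 2 lowest as for most ER stress genes. Of the 9 theca and stroma markers 8 were highest in low 2, NR2F2 being the exception, and none of the 9 was at 0 in every library. The 6 endothelial markers summed to 54.9 and 58.5 CPM in high against 63.6 and 73.9 CPM in low. TIE1 made up most of that sum in low 1, and 5 of the 6 were higher in low 2 than in low 1, with a median log2 ratio, low 1 over low 2, of -2.37. VWF had 6.64 and 4.32 CPM in high against 1.16 and 22.0 CPM in low. Leukocyte markers, 7 in all, summed to 1.41 and 3.19 CPM in high and 0.658 and 2.74 CPM in low. The 5 markers of plasma cells, which hold much ER, summed to 5.53 and 4.32 CPM in high and 1.98 and 1.84 CPM in low, with POU2AF1 at 0 in each library. The part of these cells, of handling and of cell cycle state in the values of the 33 genes was not tested. Of the 33 genes 10 overlap another annotated gene, and reads there cannot be told apart if counting ignored strand. Among these pairs are DDIT3 and MARS, SYVN1 and MRPL49, DERL3 and SMARCB1, and DNAJB11 and TBCCD1.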

How the data were processed

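Total RNA had been extracted with Trizol, per the labels' protocols, and reads aligned to Sscrofa11.1 by HISAT2, as the submitters' processing notes give it. The authors deposited whole-number counts of reads per gene symbol. The counter, annotation release and strand setting are not stated. The 4 columns were matched to samples by title, and replicate numbers only follow the listing order. The titles hold a code per library whose meaning is not stated, and it was not used. Coordinates come from the RefSeq gene table of Sscrofa11.1.

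High was compared with low G0/G1 by edgeR 4.0.16 in R 4.3.3, two-sided and with no covariate. Genes passed filterByExpr (smallest count 10, smallest total 15), TMM scaled the totals, glmQLFit and glmQLFTest gave the tests, and Benjamini-Hochberg adjustment ran over the 14352 genes tested. A fold change is high over low on the log2 scale, and its SE was taken from the F statistic. Log2 ratios between libraries add a prior count of 2. The tests were checked on simulated data. Alternatives were DESeq2 1.42.0, limma-voom 3.58.1, RLE and upper quartile scaling, no filter, a minimum count of 50, and leaving out each library.

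All 33 members are named, and from each further list those of the up to 2 genes per direction with the smallest p that are described. Other genes were named after their values were seen, marker genes included. The members, lists and role groups were chosen with earlier results of these data known. Of 128 list names 3 could not be matched to a row by symbol or synonym, and HSPA1A and HSPA1B share 1 row, which left 124. Intervals cover counting error only, because the reads carry no molecular identifiers. Lengths, promoters and protein sequences were not used here.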

Additional observations from a re-analysis of the deposited data

How the results depend on the processing

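No paired analysis was possible because the labels state no animal, batch or pairing. Each title carries a code of unstated meaning, which was not read as a pairing. EdgeR called 0 genes under RLE or upper quartile scaling or a minimum count of 50, as did limma-voom, and 2 higher and 3 lower without the filter. DESeq2 called 767 higher and 725 lower, 5 and 2 among the 33 genes, and 1 and 2 in the further lists. With 1 library left out, edgeR called 0 to 363 genes higher and 0 to 591 lower, 0 to 2 members higher, and 0 to 2 higher and 0 to 1 lower list genes. The same with DESeq2 was chosen after seeing the data. Its counts of members and list genes are to be read against the shares of all genes given above for each library left out. It called 982 higher and 1261 lower without high 1, 391 and 470 without high 2, 315 and 115 without low 1, and 202 and 141 without low 2. Among the 33 it called 0 to 11 higher (7 without high 1) and 0 to 1 lower, and in the lists 0 to 8 higher (3 without low 1) and 0 to 5 lower (3 without high 2). Groups did not overlap for 12 to 24 higher and 6 to 15 lower members with 1 library left out. Of all genes tested, 37.6% to 39.7% were higher and 36.9% to 42.1% lower in this way. Past 1.5-fold, 21 members were higher in low 1 than in low 2 (against 10.5% of all genes tested) and 8 lower in high 1 than in high 2 (against 17.4%). At a minimum count of 50, 1 member was past 2-fold higher in high 1.

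HSP90B1, near 0, turned positive under DESeq2 (0.015), limma-voom (0.15), RLE (0.015), upper quartile scaling (0.019) and a minimum count of 50 (0.021), DNAJB11 under limma-voom (0.015), and ATF6 negative without the filter (-0.0067). With 1 library left out, log2 fold changes crossed 0 for 16 named genes, and the cause was not tested. The ranges were -0.25 to 0.40 for ATF6, -0.17 to 1.17 for ATF3, -0.087 to 2.04 for HSPA5, -0.52 to 0.90 for HSP90B1, -0.57 to 0.15 for HYOU1, -0.61 to 0.72 for DNAJB11 and -0.11 to 0.59 for DNAJC3. They were -0.29 to 2.80 for SDF2L1, -0.23 to 0.61 for MANF, -0.72 to 0.11 for PDIA4, -0.027 to 0.48 for SEL1L, -0.056 to 0.38 for EDEM1, -0.16 to 0.71 for DERL1 and -0.23 to 0.54 for SEC61B. NUPR1 ranged from -0.39 to 2.85 and ATF5 from -0.76 to 0.069. The smallest count of a member was 100, and 2 libraries a group limit the precision.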
